A study of Caenorhabditis elegans with 2 samples.

Results

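The 346 annotated small nucleolar RNA (snoRNA) genes of the Caenorhabditis elegans nuclear genome were examined for binding by the nuclear hormone receptor NHR-43. They are all the nuclear genes that the Ensembl annotation of the WBcel235 (ce11) assembly labels as snoRNA, out of 46890 nuclear genes. No binding value served as a criterion, though members were chosen with earlier results of these data known. Of these, 130 are free-standing, meaning not wholly inside the body of a protein-coding gene, and 216 lie inside one. Chromatin immunoprecipitation followed by sequencing (ChIP-seq) had been done with an anti-GFP antibody on whole hermaphrodite L3 larvae, 36.5 h after starved L1 larvae were released into development. The strain, OP477 (unc-119(tm4063) III; wgIs477), carries an integrated transgene that makes NHR-43 fused at its C terminus to GFP and FLAG, so the protein measured is the transgene product in whole animals and no cell type can be assigned to a site. The data are 2 biological replicates of 1 group, with no second genotype, treatment or time. Libraries of the control experiment named in the labels were not analysed here, and a peak is reported as a place of binding signal, not as a regulated gene.

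SnoRNAs guide the chemical modification of other RNAs. Box C/D snoRNAs direct 2′-O-methylation and box H/ACA snoRNAs direct pseudouridylation, mostly of ribosomal RNA. Many animal snoRNAs are cut out of the introns of a host gene's transcript and need no promoter of their own, whereas others are independent transcription units. RNA polymerase III genes such as tRNA genes carry an internal promoter of an A box and a B box, which the factor TFIIIC recognises, and RNA polymerase III has also been described at a subset of C. elegans snoRNA genes. The annotation used here gives no box class, so the genes are described by position, host and length.

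A gene was called bound when the summit of a peak in the authors' thresholded list lay within 200 bp of its annotated 5′ end. The sequences shown are the 120 bases before the first base of the RNA, from the RefSeq WBcel235 genome on the strand of the gene and written 5′ to 3′. The first 8 belong to the bound snoRNA genes with the highest peak signal among those on II, III, IV, V and X, and they show the upstream sequence of the genes with the strongest peaks, whose summits lie within these windows in 5 of the 8 and downstream of the first base in C51F7.4, K07C10.2 and C08D8.3. Capitals mark matches, on the gene's strand, to any of 4 words: the A-box core TGGCNNAG, the B-box core GTTCNANNC, and the pair CGNAACNCG and TGTCGG. The cores are forms of the textbook boxes, and the A-box form is narrow: it stands in 17.7% of tRNA genes, the B-box form in 95.9%. The pair was read from these same windows, and all 4 were searched after the windows had been seen. The windows are, with the strand in brackets, V:8500459-8500578 (+) for ZK994.7, V:12303588-12303707 (+) for C51F7.3, V:12303479-12303598 (+) for C51F7.4, II:15025894-15026013 (−) for Y53F4B.47. Those of the other 4 are II:11167097-11167216 (+) for K07C10.2, III:4689772-4689891 (−) for T04A8.17, V:19643188-19643307 (−) for Y43F8C.22, V:8348988-8349107 (+) for C08D8.3.
ZK994.7: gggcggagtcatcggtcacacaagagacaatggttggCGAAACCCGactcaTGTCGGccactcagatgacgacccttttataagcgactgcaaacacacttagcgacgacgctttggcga
C51F7.3: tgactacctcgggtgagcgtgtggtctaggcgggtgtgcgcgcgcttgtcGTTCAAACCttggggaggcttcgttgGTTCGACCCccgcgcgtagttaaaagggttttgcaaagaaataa
C51F7.4: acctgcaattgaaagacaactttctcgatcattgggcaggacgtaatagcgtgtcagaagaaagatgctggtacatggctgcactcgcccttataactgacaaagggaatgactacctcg
Y53F4B.47: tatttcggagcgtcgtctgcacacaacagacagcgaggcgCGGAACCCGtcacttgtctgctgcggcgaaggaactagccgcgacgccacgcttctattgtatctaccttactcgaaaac
K07C10.2: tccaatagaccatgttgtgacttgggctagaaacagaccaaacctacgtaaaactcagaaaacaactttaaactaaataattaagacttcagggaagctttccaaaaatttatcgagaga
T04A8.17: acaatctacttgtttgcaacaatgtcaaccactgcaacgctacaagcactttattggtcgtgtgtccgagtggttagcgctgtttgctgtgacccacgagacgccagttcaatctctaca
Y43F8C.22: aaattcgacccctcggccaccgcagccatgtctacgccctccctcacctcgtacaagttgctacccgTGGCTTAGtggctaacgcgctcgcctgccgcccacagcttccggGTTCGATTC
C08D8.3: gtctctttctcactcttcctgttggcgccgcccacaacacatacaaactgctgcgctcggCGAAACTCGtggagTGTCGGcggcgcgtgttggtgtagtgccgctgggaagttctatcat
In ZK994.7 and C08D8.3 both words of the pair stand in the same order with 5 bases between them. Y43F8C.22 holds an A-box core and, ending at the last base before the RNA, a B-box core. C51F7.3 and C51F7.4 lie side by side, share 1 peak, and the window of C51F7.3 runs across the whole of C51F7.4.

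The next windows extend these patterns and were picked after the values were seen. C04G6.12, T03F7.8 and F32E10.10 are the next bound genes on those chromosomes with both cores and a length of at most 75 bases, C16D9.10 and W04D2.7 are the next with both words of the pair, and Y24D9A.10 is an unbound gene inside the ribosomal protein gene rpl-7A. Their windows are II:5105232-5105351 (−) for C04G6.12, V:11314138-11314257 (+) for T03F7.8, IV:7574002-7574121 (+) for F32E10.10, V:8247962-8248081 (−) for C16D9.10, V:12491160-12491279 (+) for W04D2.7 and IV:4389878-4389997 (−) for Y24D9A.10.
C04G6.12: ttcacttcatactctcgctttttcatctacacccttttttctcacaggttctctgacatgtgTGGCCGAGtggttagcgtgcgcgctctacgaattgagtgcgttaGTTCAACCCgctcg
T03F7.8: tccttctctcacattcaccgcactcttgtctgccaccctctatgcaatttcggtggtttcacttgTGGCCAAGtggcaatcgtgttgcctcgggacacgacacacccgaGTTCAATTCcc
F32E10.10: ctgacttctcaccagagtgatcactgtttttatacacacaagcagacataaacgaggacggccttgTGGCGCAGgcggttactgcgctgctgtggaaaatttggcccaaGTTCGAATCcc
C16D9.10: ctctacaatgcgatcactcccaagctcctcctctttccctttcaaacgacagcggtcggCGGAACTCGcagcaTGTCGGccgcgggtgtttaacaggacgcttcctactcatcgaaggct
W04D2.7: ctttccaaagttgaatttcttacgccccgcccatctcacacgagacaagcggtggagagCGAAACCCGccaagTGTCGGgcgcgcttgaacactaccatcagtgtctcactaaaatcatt
Y24D9A.10: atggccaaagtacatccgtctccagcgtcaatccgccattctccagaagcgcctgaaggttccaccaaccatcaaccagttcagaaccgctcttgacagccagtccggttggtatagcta
C04G6.12, T03F7.8 and F32E10.10 lie at unrelated places in the genome, and their spacing is alike. Their A-box core lies in the middle of the printed window and their B-box core at its end. F55A11.10, bound, 91 bases long and left out by the length limit, also holds both cores, spaced farther apart. Its A-box core began at −66 bp and its B-box core at −14 bp, against −58 and −14 bp in C04G6.12. In C16D9.10 and W04D2.7 the pair again stands with 5 bases between its words. The window of Y24D9A.10 holds none of the 4 words.

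Of the 346 snoRNA genes, 86 were bound, a share of 24.9% (exact Clopper-Pearson 95% interval 20.4 to 29.8%, which covers counting error only). The same definition called 1943 of all 46890 nuclear genes, a background of 4.14%. C. elegans piRNA genes are many and rarely bound, and without them the background was 6.03% (1902 of 31527 genes), a comparison added after the values were seen. By class, tRNA genes were above snoRNA genes at 44.4% (272 of 612, 40.5 to 48.5%). The 129 small nuclear RNA genes were at 19.4% (13.0 to 27.3%), an interval that overlaps the one for snoRNA genes. Protein-coding genes were at 4.35% (869 of 19973), other noncoding RNA genes at 7.95%, microRNA genes at 2.68% and pseudogenes at 0.517%. Genes are not replicates of a condition, so these are counts in 1 data set and carry no p-value.

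**Figure D1:**
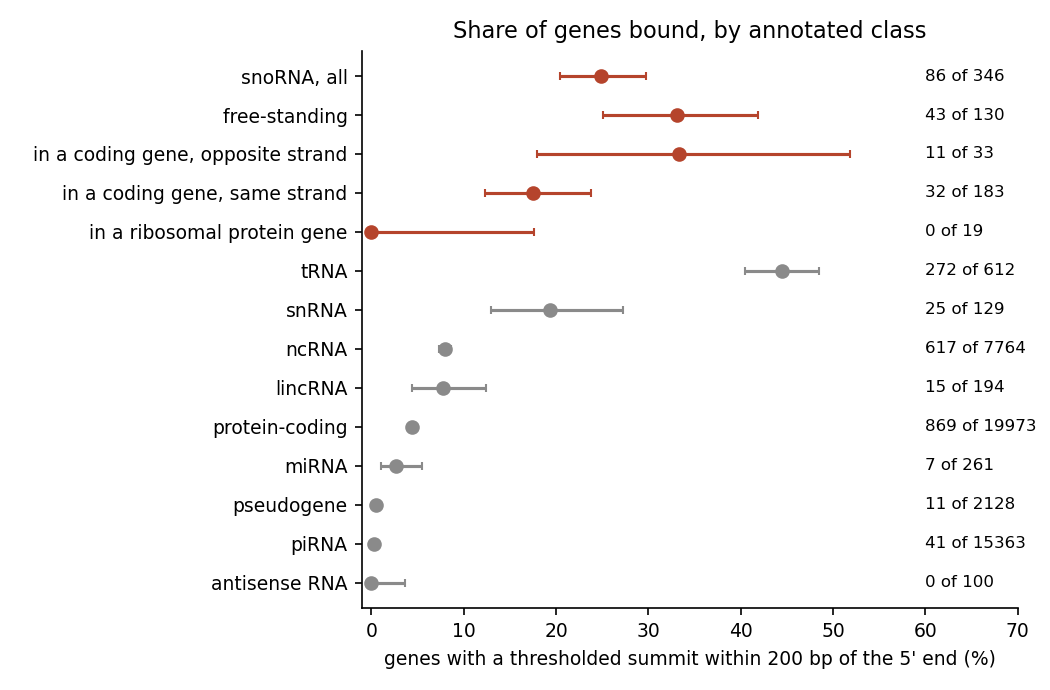
Share of genes with a thresholded summit within 200 bp of the annotated 5′ end (x axis, percent) by gene class and by the place of snoRNA genes. Points are shares (red for snoRNA genes, grey for other classes), bars are exact Clopper-Pearson 95% intervals for counting error, and the counts stand at the right. Free-standing snoRNA genes, at 33.1%, and snoRNA genes on the strand of a coding host, at 17.5%, both lie above protein-coding genes at 4.35%.

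The bound share of snoRNA genes differed by place in the genome, by an amount that depended on the definition used. Free-standing genes were bound in 43 of 130 cases (33.1%, interval 25.1 to 41.9%), and genes inside a protein-coding gene in 43 of 216 (19.9%, 14.8 to 25.9%). The difference was 13.2 percentage points (Newcombe 95% interval 3.67 to 22.9). Among genes inside a host, the 33 that run against the host's strand were bound in 11 cases (33.3%, 17.96 to 51.8%), and the 183 on the host's strand in 32 (17.5%, 12.3 to 23.8%), a difference of 15.9 points (0.934 to 33.6). A snoRNA on the opposite strand cannot be cut from its host's intron. Of the 47 genes that overlap an annotated exon of a coding gene while inside one, 6 were bound (12.8%), and of the 169 that lie in an intron of each overlapping transcript 37 were (21.9%). When summits in a promoter window of any protein-coding gene, 1000 bp upstream to 200 bp downstream of its 5′ end, were left out, 25 free-standing genes (19.2%) and 36 inside genes (16.7%) remained called, which brought the 2 shares closer together.

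The strongest peak at a snoRNA gene was at ZK994.7, a gene of 67 bases at V:8500579-8500645 on the plus strand, inside pxn-1, which encodes a peroxidasin. Its signal was 716.3 in the thresholded list, rank 70 among all thresholded peaks, with the summit 32 bp upstream of the RNA. Its own peak had signal 273.1 in replicate 1 and 422.3 in replicate 2 and ranked 72 in both. Signal is the authors' value per peak and its scale belongs to its own list, so it ranks peaks within a list and is not compared between lists.

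C51F7.3 (V:12303708-12303783, plus strand) and C51F7.4 (V:12303599-12303693, plus strand) are consecutive genes in frm-7, a gene for a FERM domain protein. Their shared peak had signal 529.9, with 181.4 (rank 176) in replicate 1 and 329.5 (rank 108) in replicate 2, and its summit lay 90 bp upstream of C51F7.3 and 19 bp inside C51F7.4. The free-standing Y53F4B.47 (II:15025814-15025893, minus strand) had signal 475.3, with 207.4 (rank 132) in replicate 1 and 283.2 (rank 150) in replicate 2, summit 44 bp upstream and in a coding promoter window. Both places stood at like ranks in both replicates.

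On chromosome I, the free-standing F59C6.15 (10516978 to 10517150, minus strand) had signal 570.5, with 162.2 in replicate 1 and 363.5 in replicate 2, ranks 207 and 93. ZK265.10, a free-standing gene of 62 bases, had signal 455.9, with 211.0 in replicate 1 and 194.0 in replicate 2, ranks 123 and 314. Both summits lay upstream, at 71 and 39 bp, and both also fell in a coding promoter window. Y37E3.20, inside pcyt-2.1, had signal 454.8, with 161.2 in replicate 1 and 260.8 in replicate 2, and its summit lay 5 bp upstream. F39B2.14, inside tmem-107, had signal 456.9, with 154.5 in replicate 1 and 275.4 in replicate 2, and T27A3.9, free-standing, had 317.9, with 119.9 in replicate 1 and 142.4 in replicate 2. The summit of F39B2.14 lay 118 bp upstream, in the promoter window of its host, whose 5′ end is 61 bp away, and that of T27A3.9 lay 43 bp upstream.

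Lower in the ranking, further genes inside hosts had their summit outside every coding promoter window, and 4 of them are given first. T04A8.17 (III:4689634-4689771, minus strand), on the opposite strand inside ppat-1, had signal 308.2, with 124.9 in replicate 1 and 173.8 in replicate 2. Y43F8C.22 (V:19643050-19643187, minus strand), inside Y43F8C.7, had 307.4, with 99.5 in replicate 1 and 159.2 in replicate 2. Their summits lay 21 and 24 bp upstream. C08D8.3 (V:8349108-8349187, plus strand), inside C08D8.1, had 292.9, with 81.8 in replicate 1 and 214.4 in replicate 2. C04G6.12 (II:5105157-5105231, minus strand), on the opposite strand inside mpk-2, which encodes a mitogen-activated protein kinase, had 263.9, with 64.7 in replicate 1 and 167.2 in replicate 2. In these 4 genes the summit lay within 24 bp of the first base of the RNA. In T06D8.11 and F07A11.15, also inside hosts and with summits outside those windows, it lay 128 and 187 bp downstream.

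Of the other genes among the 20 highest, C16D9.10, free-standing and 74 bases long, had signal 274.0, with 117.2 in replicate 1 and 122.4 in replicate 2, and was the 1 bound snoRNA gene whose summit also lay within 500 bp of a tRNA gene. F38E11.14, inside the cyclic nucleotide-gated channel gene cng-3, had 289.9, with 101.3 in replicate 1 and 130.2 in replicate 2. T06C12.16, free-standing, had 267.4, with 56.5 in replicate 1 and 144.2 in replicate 2. These 3 RNAs are 71 to 74 bases long and their summits lay 2, 77 and 13 bp upstream, that of F38E11.14 in a coding promoter window. In K07C10.2 (321.9, with 132.3 in replicate 1 and 175.2 in replicate 2), F30H5.4 (288.2, with 62.8 in replicate 1 and 150.3 in replicate 2) and T06D8.11 (271.1, with 58.5 in replicate 1 and 126.3 in replicate 2) the summit lay downstream of the first base, at 80, 31 and 128 bp. F07A11.15, on the opposite strand inside din-1, had 280.3 in the thresholded list and 185.7 in replicate 2, with no replicate 1 summit within 200 bp.

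The 86 bound genes took up 85 peaks, 2.20% of the 3870 nuclear peaks in the thresholded list. Their signal ran between 66.2 and 716.3 with a median of 199.2, against a median of 110.0 over all nuclear thresholded peaks. In all, 75 of the 85 peaks (88.2%) lay above that median and 50 lay in the upper 25%. Their median width was 220 bp against 324 bp. Every snoRNA peak of exactly 324 bp had a signal below the snoRNA median of 199.2. Other widths did not follow that direction: the peak of ZK994.7 (716.3) was 290 bp wide and that of ZK643.9 (169.6) 81 bp. Width was thus not independent of signal and is not read as a separate trait. Summits of 25 bound genes (29.1%) lay in a promoter window of a coding gene, where 42.5% of all nuclear summits lay.

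The replicates were looked up for the bound genes. The thresholded list keeps peaks for their reproducibility between these same replicates, so the agreement over bound genes is a description that this selection largely fixed. Of the 86, 81 had a summit within 200 bp in the relaxed lists of both replicates, 83 in replicate 1 and 84 in replicate 2. F07A11.15, C07A9.14 and F56C9.12 had none in replicate 1, and W08G11.6 and R166.10 none in replicate 2. The median rank of the 81 was 849 in replicate 1 and 834 in replicate 2, and 73 ranked within the first 3889 peaks, the size of the thresholded list, in both. Ranks correlated across the 81 genes with a Spearman rho of 0.566, given as a description over genes that share both libraries. Summits of the replicates lay a median of 33 bp apart, and 70 of 81 pairs within 100 bp. Taking the 3889 highest peaks of each replicate alone called 83 snoRNA genes in replicate 1 and 85 in replicate 2.

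**Figure D2:**
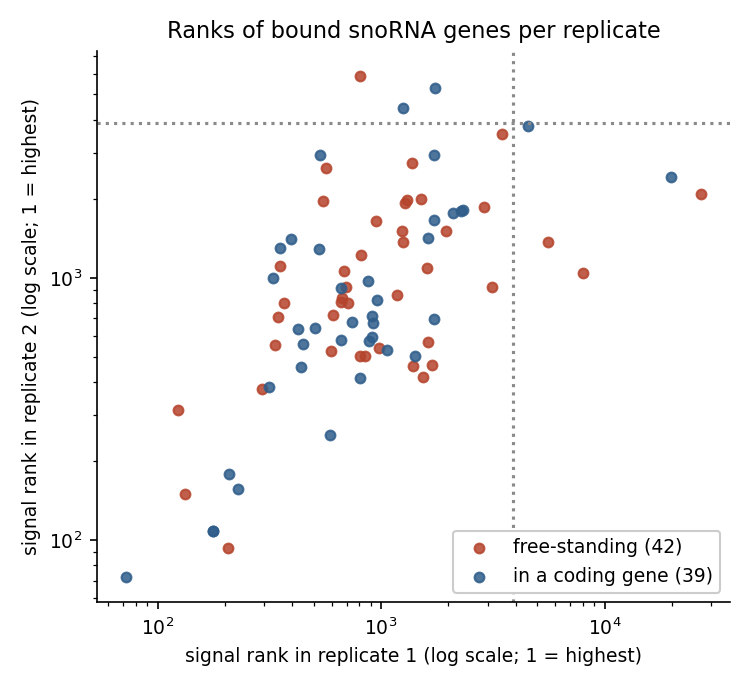
Signal rank of the peak at each bound snoRNA gene in replicate 1 (x axis) and replicate 2 (y axis), both log scales with 1 the highest, for the 81 genes with a relaxed summit in both. Dotted lines mark rank 3889, and 73 genes lie inside both lines. Colours give free-standing genes and genes in a coding gene, which are mixed along the whole range.

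The relaxed lists are long and give weaker support. Over all 346 snoRNA genes, 147 (42.5%) had a relaxed summit in replicate 1, 137 (39.6%) in replicate 2 and 108 (31.2%) in both, where the background over all nuclear genes was 14.2%, 14.4% and 6.88%. Of the 260 unbound genes, 27 had a relaxed summit in both replicates and 170 in neither. Among these 27, the gene with the best mean rank was F58D5.12, with signal 24.5 (rank 2643) in replicate 1 and 35.2 (rank 4001) in replicate 2. T23G11.12 followed with 8.1 in replicate 1 and 37.0 in replicate 2, and B0412.7, inside rps-29, with 9.8 in replicate 1 and 24.7 in replicate 2. K07E1.2 had 15.9 in replicate 1 and 17.0 in replicate 2, and F17C11.25, inside zip-9, had 9.1 in replicate 1 and 25.5 in replicate 2. For all 5, the summits ranked far below those of the 20 highest bound genes in each list that held them. Some unbound genes ranked higher in 1 replicate and had no summit in the other, such as F37A8.7 with signal 150.7 (rank 501) in replicate 2, whose thresholded summit lay just outside the limit.

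Summits gathered at the start of the RNA. Among the 86 bound genes 60 summits lay upstream of the first base and 26 downstream, with a median of −17.5 bp and quartiles of −50 and 11.5 bp, where negative means upstream. In 56 genes (65.1%) the summit lay in the 100 bp just upstream, against 29.9% of the 869 bound protein-coding genes, whose median was −102 bp. Bound tRNA genes had a median of −2 bp and bound small nuclear RNA genes −23 bp. The position was alike for free-standing genes (median −26 bp, n = 43) and genes inside a host on the same strand (−26.5 bp, n = 32), and −6 bp for the 11 on the opposite strand. Within the replicates the median over the bound genes was −24 bp in replicate 1 and −18.5 bp in replicate 2.

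**Figure D3:**
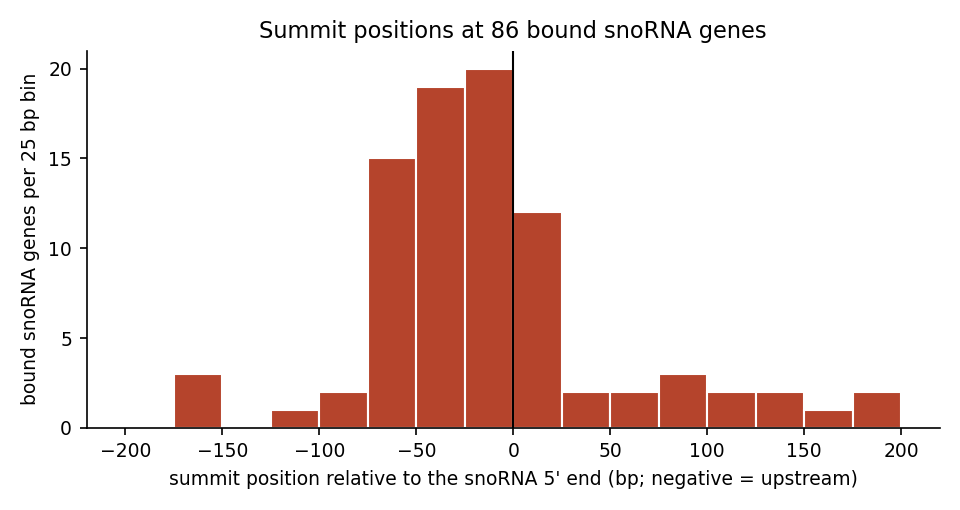
Number of bound snoRNA genes (y axis) by distance of the thresholded summit to the annotated 5′ end in bins of 25 bp (x axis, negative is upstream). The bins between −75 and 0 bp hold 15, 19 and 20 genes, and the next bin downstream holds 12.

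Few genes stood near the limit of 200 bp. The bound genes with the most distant summits were F07A11.15 at 187 bp, C05H8.3 at 179 bp (signal 138.2), F17C11.24 at −175 bp (101.1), R166.10 at −172 bp (88.0) and C54G4.16 at −167 bp (74.3). The nearest unbound ones were C41C4.16 at −206 bp, F37A8.7 at 206 bp, F54E7.10 at −238 bp, W06H8.17 at −239 bp and F37F2.4 at −296 bp. Of the 260 unbound genes, 12 had a summit beyond 200 and up to 400 bp away, 36 beyond 400 and up to 1000 bp, and 212 none within 1000 bp.

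Short snoRNA genes were bound more often than long ones, by length classes chosen after the values were seen. Of the 43 snoRNA genes of at most 75 bases, 31 were bound (72.1%, 56.3 to 84.7%), and of the 303 longer ones 18.2%, a difference of 53.9 percentage points (38.4 to 65.8). The share was 26.9% (14 of 52) at 76 to 100 bases, 19.9% (28 of 141) above 100 and up to 150 bases and 11.8% (13 of 110) above 150 bases. Bound genes had a median length of 93 bases and unbound genes 134. Free-standing and inside genes had like lengths, with medians of 135 and 127 bases.

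**Figure D4:**
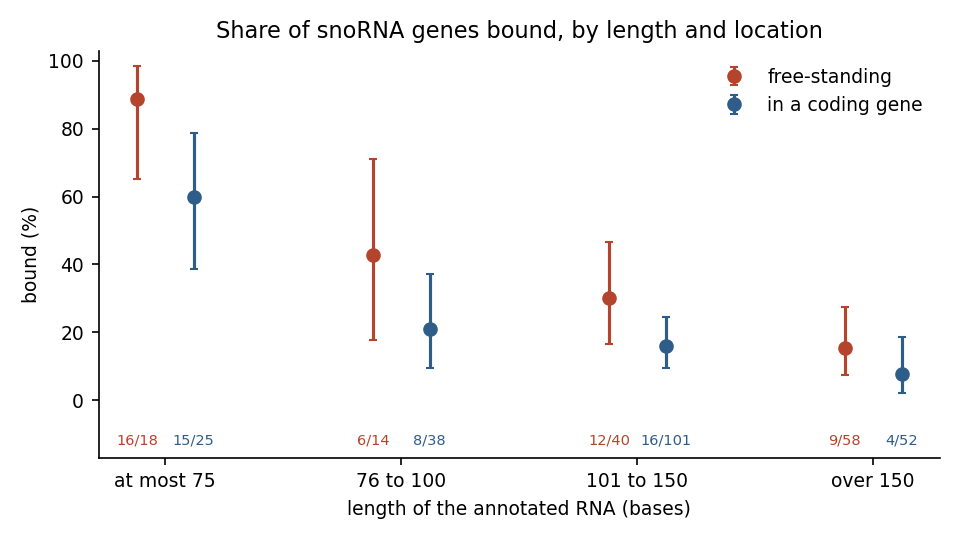
Share of snoRNA genes bound (y axis, percent) by length of the annotated RNA (x axis, bases), for free-standing genes and genes inside a coding gene. Points are shares and bars exact Clopper-Pearson 95% intervals for counting error. At most 75 bases the shares are 88.9% for free-standing and 60% for inside genes, and above 150 bases 15.5% for free-standing and 7.69% for inside genes.

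Within each length class free-standing genes had the higher share, though only the shortest class gave a difference whose interval left out 0. At most 75 bases, 16 of 18 free-standing genes were bound (88.9%) and 15 of 25 inside genes (60%), a difference of 28.9 points (1.58 to 49.8). For 76 to 100 bases the difference was 21.8 points (−4.56 to 48.3), above 100 and up to 150 bases 14.2 points (−0.401 to 30.7) and above 150 bases 7.83 points (−4.85 to 20.2). The 2 short free-standing genes that were not bound, M163.14 and F54E4.17, both lie on the X chromosome. Of the 10 unbound short genes inside hosts, 3 lie in the ribosomal protein genes rpl-4, rpl-7A and rps-4, and K12D12.7 and K12D12.8 lie together in top-2, which encodes a type II DNA topoisomerase.

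The shares also differed by chromosome. On V 21 of 55 snoRNA genes were bound (38.2%, 25.4 to 52.3%), on II 23 of 71 (32.4%), on IV 16 of 59 (27.1%), on I 14 of 74 (18.9%) and on III 9 of 54 (16.7%). The X chromosome had 3 of 33 (9.09%, 1.92 to 24.3%), close to the 8.07% of all genes there, and each other chromosome stood above its own share of all genes. The 3 on X were free-standing. C53B7.8 had signal 205.8, with 72.4 in replicate 1 and 105.6 in replicate 2. D2021.6 had 125.0, with 13.5 in replicate 1 and 81.4 in replicate 2, and K09E9.5 had 73.3, with 19.3 in replicate 1 and 39.0 in replicate 2. Neighbouring chromosomes in this order overlap in their intervals.

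Genes inside hosts had a lower bound share where the host's own promoter was bound. Where the host promoter held a thresholded summit, 6 of 63 snoRNA genes were bound (9.52%, 3.58 to 19.6%), and where it did not, 37 of 153 (24.2%, 17.6 to 31.8%). These intervals overlap, which does not measure the difference, and no interval was computed for it. Of the 63, 16 lie in hosts with the ribosomal protein gene names rpl- or rps-. Of the 43 bound inside genes, 37 lay over 1000 bp from the host's 5′ end and 36 had a summit outside every coding promoter window. Their median distance to the host's 5′ end was 1971 bp, against 2066 bp for unbound inside genes. Where the snoRNA gene began at most 1000 bp from the host's 5′ end 6 of 66 were bound (9.09%), and farther away 37 of 150 (24.7%).

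In ribosomal protein genes most host promoters were bound and the snoRNA genes were not. Such hosts were taken by name alone, those starting with rpl-, rps- or rla-, so a ribosomal protein gene named otherwise counts among the other hosts. These 13 hosts, coding for proteins of both ribosomal subunits, hold 19 snoRNA genes, all on the host's strand. Of the 19, 0 were bound (exact upper limit 17.65%), against 43 of 197 in other hosts (21.8%, 16.3 to 28.3%). The intervals again overlap, and no interval was computed for the difference. Of all nuclear genes 4.14% were bound, below the upper limit of 17.65%, so 0 of 19 does not set these snoRNA genes apart from that background. The 3889 highest peaks of each replicate alone also reached 0 of the 19. A relaxed summit in both replicates was found at 3 of them, where 6.88% of all nuclear genes had one. The promoters of 11 of the 13 hosts were bound, against 10.1% of all coding genes. In rpl-15, the host of K11H12.13 and K11H12.12, the promoter peak had signal 1302.4 (rank 29) at 354 bp upstream of the host's 5′ end. In rpl-7A, the host of Y24D9A.10 and Y24D9A.9, it had 878.9 (rank 58) at 81 bp upstream, and in rps-12, the host of F54E7.10 and F54E7.11, 744.5 (rank 66) at 158 bp upstream. These snoRNA genes begin 80 to 953 bp into the host, and no thresholded summit came nearer than 238 bp to any of them.

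The upstream sequence was compared in the 200 bp before each 5′ end. Counting either strand, GTTCNANNC was in 29.1% of bound windows, 7.31% of unbound windows and 5.83% of windows of all nuclear genes, and TGGCNNAG in 27.9%, 11.2% and 4.30%. CGNAACNCG was in 29.1% of bound, 4.23% of unbound and 1.00% of all windows, and TGTCGG in 25.6%, 11.2% and 4.25%. Because the pair was read from these windows, its shares are a description of them. GAGAGA, from the list of words in the design, was in 31.4% of bound, 15.4% of unbound and 12.5% of all windows, and CCGCCC in 12.8%, 6.54% and 4.04%. The nuclear receptor core words AGGTCA (5.81%, 5.77% and 4.89%) and AGTTCA (15.1%, 14.6% and 13.9%) were nearly as frequent in each set. CTGCGTC was in 5.81% of bound, 4.23% of unbound and 2.09% of all windows, TATAA in 34.9%, 30.4% and 47.0%, and CAAAGTCCA in 0 bound, 0 unbound and 0.130% of all windows. A match is a run of letters, not a measured site.

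Orientation and spacing were regular in the bound windows. On the gene's strand TGGCNNAG was in 22 bound and 15 unbound windows, and on the other strand in 4 and 16. GTTCNANNC was in 24 bound and 14 unbound windows on the gene's strand, and in 2 and 6 on the other. In bound windows 20 of 22 A-box cores began 75 to 40 bp upstream of the RNA (median −59.5 bp) and 22 of 25 B-box cores 30 to 1 bp upstream (median −14 bp). In unbound windows the same bands held 5 of 15 and 6 of 14. CGNAACNCG began 75 to 40 bp upstream in 19 of 23 bound matches and 9 of 10 unbound ones, so its place was alike in both. TGTCGG began in that band in 19 of 20 bound matches (median −48 bp) and 11 of 23 unbound ones (median −78 bp). In tRNA genes the B-box core stood inside the gene in 587 of 612 (95.9%), and TGGCNNAG in 108 (17.7%).

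**Figure D5:**
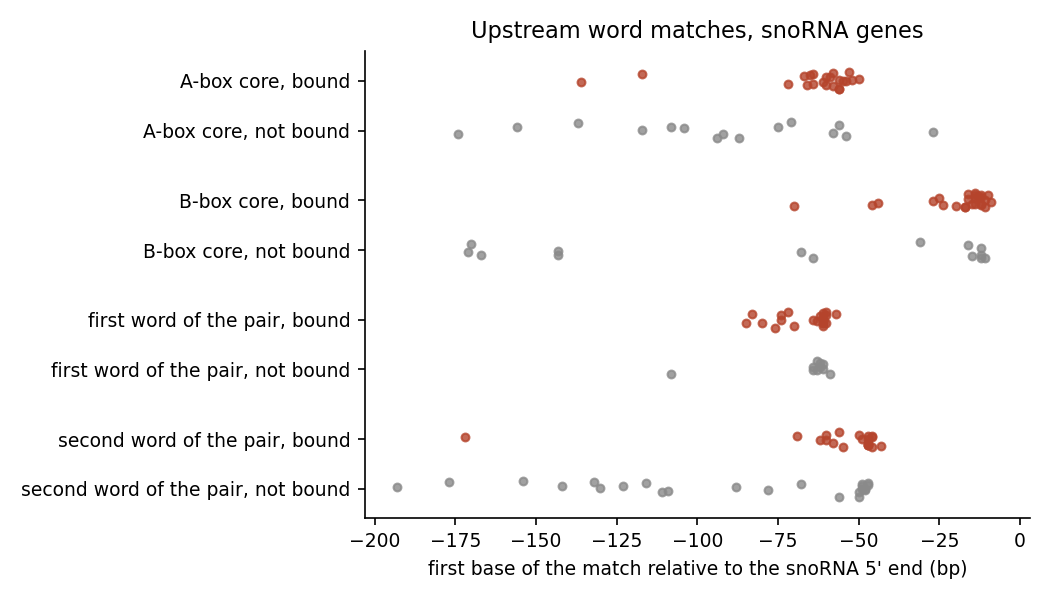
Position of the first base of each match on the gene's strand, relative to the 5′ end of the snoRNA (x axis, bp), for bound and unbound genes, with 1 point per match. A-box cores of bound genes lie around −59.5 bp and B-box cores around −14 bp. Those of unbound genes reach farther upstream, though 6 of 14 B-box cores lie 30 to 1 bp upstream, where most bound ones lie. The first word of the pair lies near −61 bp in bound and −62.5 bp in unbound genes.

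Genes with these words on their strand were bound more often than genes without. Of 13 genes with both cores, 12 were bound (92.3%), and the exception, Y59E1B.14, lies on X with no relaxed summit in either replicate. With 1 core alone 22 of 49 were bound, with both words of the pair and no core 17 of 23 (73.9%), and with 1 word of the pair 7 of 20. Of the 5 genes with a core and also a word of the pair, which are part of the core counts, 1 was bound (20%). With any of the 4 words 58 of 105 were bound (55.2%), and with none 28 of 241 (11.6%). Replicate 1's 3889 highest peaks alone called 55 of 105 and 28 of 241, and those of replicate 2 called 56 and 29.

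The short RNAs and the words went together. Of 28 genes of at most 75 bases with any of the words, 27 were bound (96.4%), and of 15 without, 4. For 76 to 100 bases the counts were 10 of 14 with a word and 4 of 38 without. Above 100 and up to 150 bases they were 13 of 36 with a word and 15 of 105 without, and above 150 bases 8 of 27 and 5 of 83. Among genes on the strand of their host, 24 of 43 with a word were bound (55.8%) and 8 of 140 without (5.71%). For those on the opposite strand the counts were 8 of 17 with a word and 3 of 16 without. Free-standing genes were bound in 26 of 45 cases with a word (57.8%) and 17 of 85 without (20%). Of the 19 genes in ribosomal protein hosts, 1 had any of the words. Since the words and the length classes were chosen with the bound genes known, these counts describe the set and do not test it.

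Letters inside the RNA gave a partial view of the box class. A C box (TGATGA) in the first 20 bases with a D box (CTGA) in the last 20 was found in 14 snoRNA genes, of which 8 were bound. An ACA placed 3 bases before the annotated 3′ end, as in box H/ACA RNAs, was found in 58, of which 17 were bound (29.3%). That is near the 24.9% of all snoRNA genes. With ACA anywhere in the last 8 bases, 21 of 93 were bound (22.6%). Most of the 346 genes fell in neither the C and D box set nor the set with ACA 3 bases before the 3′ end. No member had the same sequence as another, and each peak count above is over distinct genes.

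The protein side of the snoRNA particle was read from a list of 11 genes. Within 200 bp of the 5′ end, 3 of the 11 were bound, against 4.35% of all coding genes: fib-1, which encodes the methyltransferase fibrillarin of box C/D particles (signal 329.0, summit 70 bp upstream), and ruvb-2 and ruvb-1, which encode RuvB-like ATPases that help assemble the particles (262.3 at 119 bp and 162.7 at 191 bp upstream). In the wider promoter window nol-56 (189.0) and nol-58 (161.1), core box C/D proteins, and Y48A6B.3 (147.7), the listed NHP2 homolog of box H/ACA particles, were bound too, for 6 of 11 against 10.1% of all coding genes. The genes dkc-1, gar-1, nola-3, nucl-1 and snu-13 were not. Of 19 matched genes for snRNA-type transcription, 4 were bound within 200 bp and the same number in the wider window, against the same 4.35% and 10.1% of all coding genes: ints-4 (728.4), ints-2 (117.4), ints-8 (94.1) and snpc-3.4 (70.9), where ints genes encode subunits of the Integrator complex and snpc genes subunits of the snRNA activating complex.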

How the data were processed

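ChIP-seq peak lists of 2 biological replicates were used. Per the labels, reads had been aligned to ce11, and the deposited file descriptions say that peaks were called against a control alignment, as relaxed lists per replicate (29315 and 30000 peaks) and pooled (30000), meant for the irreproducible discovery rate (IDR) method, and as a thresholded list (3889). Aligner, caller, versions and read depth were not given in the sources used here. A signal per peak was deposited by the authors, used only to rank peaks within a list, and a −log10 q value with a ceiling, not used further. The lists on ce10 were not used.

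Genes came from Ensembl release 115 on WBcel235, whose chromosomes are those of ce11, and sequences from the RefSeq genome of that assembly. The 19 mitochondrial thresholded peaks were left out. A summit is the peak start plus the deposited offset. Inside means wholly within a protein-coding gene body on either strand, and all 346 genes were kept with no filter. Shares have exact Clopper-Pearson and differences Newcombe intervals at 95%. Words were searched on both strands in the 200 bp upstream. Members and lists were chosen with earlier results of these data known. Named genes are the 20 highest bound, the 5 on each side of the limit, the 5 best-ranked unbound and the bound snoRNP protein genes. Other names, the length classes, the 4 added words and the ribosomal hosts shown were chosen after values were seen. Scripts used Python 3.11.15, pandas 2.3.3, numpy 2.4.6, scipy 1.17.1, statsmodels 0.14.6 and matplotlib 3.10.9, and were tested on simulated data. Alternatives were other distances, peak lists, thresholds, promoter and tRNA exclusions, joined loci and other definitions of intronic.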

Additional observations from a re-analysis of the deposited data

How the results depend on the processing

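The count of 86 bound snoRNA genes ran between 61 and 126 under the other settings, each within 1.5 times of it, and their share was 4.38 to 11.7 times that of all nuclear genes (5.999 as reported). The 11.7 came with summits in coding promoter windows left out, which by construction takes every bound protein-coding gene out of the background. The next highest was 9.575, at 100 bp. Of the free-standing genes 25 (19.2%) were bound with summits in coding promoter windows left out, and of the inside genes 71 (32.9%) with a window of 1000 bp upstream to 200 bp downstream. The background of 1943 genes became 1104 at 100 bp, 3219 at 500 bp, 3672 with that wider window, 1284 where the peak must cover the 5′ end, 1162 with the 50% of peaks with the higher signal, 3224 with relaxed summits in both replicates and 706 with coding promoter windows left out, as each setting admits more or fewer summits by construction. Leaving out 1 replicate gave 83 to 85 bound snoRNA genes, 43 to 45 free-standing, 40 to 40 inside and 1867 to 1871 of all genes. Counting as intronic only genes on the host's strand left 54 of 163 other genes bound (33.1%) against 32 of 183 intronic ones (17.5%). With only those in an intron of each overlapping transcript, the counts were 49 of 177 (27.7%) against 37 of 169 (21.9%), a smaller difference for which no interval was computed. No paired analysis was possible because the study has 1 group. Read depth is unknown, so weak sites cannot be separated from absent ones, and control libraries were not analysed here.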
